A study of Mus musculus with 19 samples.

Results

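The glutathione and antioxidant enzymes of the mouse kidney were described through 46 genes, named by symbol and found as 46 of the 40413 rows of the deposited count table. They make glutathione, recycle it and its thioredoxin counterpart, attach it to other molecules, or remove peroxides and superoxide. Polyadenylated RNA was sequenced from whole kidneys of adult mice of 2 inbred strains, the normotensive BPN/3J and the hypertensive BPH/2J. Each strain received vehicle or Cmpd17b, a small molecule that activates formylpeptide receptors, at 50 mg/kg/day by intraperitoneal injection for 28 days, and the study asked how the compound affects the kidney and vessels in neurogenic hypertension. The libraries used were 4 of vehicle BPN/3J, 5 of Cmpd17b-treated BPN/3J, 5 of vehicle BPH/2J and 4 of Cmpd17b-treated BPH/2J, 18 in all, each from 1 mouse. The strains differ in their whole genetic background, so strain and blood pressure cannot be told apart.

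Glutathione is a tripeptide that is assembled by glutamate-cysteine ligase (the catalytic subunit Gclc and the modifier Gclm) and then by glutathione synthetase (Gss). Glutathione peroxidases and peroxiredoxins use glutathione or thioredoxin to reduce peroxides, superoxide dismutases and catalase clear superoxide and hydrogen peroxide, and glutathione transferases couple glutathione to reactive compounds. Many of these genes are targets of the transcription factor NRF2 (Nfe2l2), which its partner KEAP1 holds back. The kidney is the main source of the circulating peroxidase encoded by Gpx3.

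Replicate 1 of the treated BPH/2J group was left out, because its 20 heart muscle marker genes summed to 80950 CPM (counts scaled to the library's total) and its 12 proximal tubule markers to 44.88 CPM. In the other 18 libraries the proximal tubule sum was 10880 to 13870 CPM in BPN/3J and 7714 to 12170 CPM in BPH/2J. The heart muscle sum of the 4 remaining treated BPH/2J libraries was 155.5 to 187.4 CPM, against 9.846 to 18.93 CPM in the other groups. Total counts of the 18 libraries ran from 21400117 to 40998659. Mitochondrial transcripts made up 12.77% to 16.3% of counts in BPN/3J and 16% to 26.61% in BPH/2J. In this bulk tissue, fewer cells of a type and less RNA per cell cannot be told apart.

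Promoter sequences are shown for the 4 members that hold TGANTCAGC, a form of the antioxidant response element, the short motif bound by NRF2 with small MAF proteins. RefSeq windows of 250 bases before to 50 bases after each transcription start (GRCm38.p6, an earlier build than the GRCm39 of the counts) were found for 39 of the 46 members. These members have 53 windows, since a gene can have more than 1 start. TGANTCAGC, searched on both strands like the others, was in 4 of the 53 windows (7.55%) and in 1.19% of all 32851 windows. The form TGACNNNGC was in 9 of the 53 (17%, against 12.4%), and these 2 forms overlap at the Prdx1 site. Of 4 other forms searched, TGANNNNGC was in 22 of the 53 windows (41.5%, against 41.3%) and TGACTCAGC in 1 (1.89%, against 0.454%). The 2 remaining forms, of 10 bases each, were in none of the 53 and in 4.3% and 0.155% of all windows. Which forms to describe further was chosen after the matches had been seen. Capitals mark the match, and each run is given 5′ to 3′ on the gene's strand, where the Prdx1 match reads on the opposite strand.
Srxn1, chr2:152105453-152105513, plus strand: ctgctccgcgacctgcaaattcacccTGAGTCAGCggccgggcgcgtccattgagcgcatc
Prdx1, chr4:116685440-116685500, plus strand: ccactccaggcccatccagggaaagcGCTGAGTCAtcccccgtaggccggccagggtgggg
Gstp1, chr19:4037952-4038012, minus strand: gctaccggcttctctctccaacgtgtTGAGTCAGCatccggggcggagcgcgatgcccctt
Gstp2, chr19:4042276-4042336, minus strand: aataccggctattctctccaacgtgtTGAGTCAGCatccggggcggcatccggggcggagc
Among these 4 genes, Gstp2 was higher and Prdx1 lower in vehicle BPH/2J kidneys, as given below. Gstp1 and Srxn1 were not called there, with log2 fold changes of 0.59 and -0.07. Neither TGANTCAGC nor TGACNNNGC was found for the other called members, Mgst3, Gstk1, Gstm1, Gss and Sod2. Most members with a window held neither form. Whether the motif has a part in any strain difference was not tested.

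Gstp1 and Gstp2 are neighbouring copies of the pi class transferase, and the start of their coding sequence is shown because a read can belong to either. Capitals mark the bases that differ, and positions are counted from the A of the start codon.
Gstp1, bases 1 to 90: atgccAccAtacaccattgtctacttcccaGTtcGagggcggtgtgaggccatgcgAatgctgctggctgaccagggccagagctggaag
Gstp2, bases 1 to 90: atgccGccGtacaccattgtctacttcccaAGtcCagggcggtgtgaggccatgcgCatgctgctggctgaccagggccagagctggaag
The reading frames of 633 bases differed at 12 positions (98.1% identity), 6 of them in this stretch, and the longest run without a difference was 303 bases. Of all stretches of 150 bases in the Gstp2 transcripts, 49.4% were also found in another gene, and 41.8% of those of Gstp1. Each value for these copies is therefore uncertain. Such sharing was 0% for Mgst3, Gstk1, Gstm1, Prdx1, Gss and Sod2.

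The peroxidases dominated the group. Levels between genes are compared in CPM per kilobase of transcript, over the mean of the 18 libraries. Gpx3 stood at 27900 CPM per kilobase and alone took up 2.31% of counts after TMM scaling, as a mean over the 18 libraries. The next were Gpx1 (2660), Prdx5 (2570) and Prdx1 (1210), followed by the cytosolic dismutase Sod1 (936), the lipid peroxidase Gpx4 (910, with 36.9% of its stretches of 150 bases shared with the pseudogene Gpx4-ps2) and catalase, Cat (442). Gstm1 was the highest transferase at 361 CPM per kilobase, followed by Gstp1 at 269, whereas Gstp2 was at 11.5. These levels and their order depend on the length used, the median over a gene's protein-coding transcripts. It was 472 bases for Gstp2, below its reading frame of 633 bases. For Prdx1 it was 661 bases, while its longest protein-coding transcript has 2294. Of the inducible enzymes, the quinone reductase Nqo1 was at 32.8 and haem oxygenase 1, Hmox1, at 10.4.

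**Figure D1:**
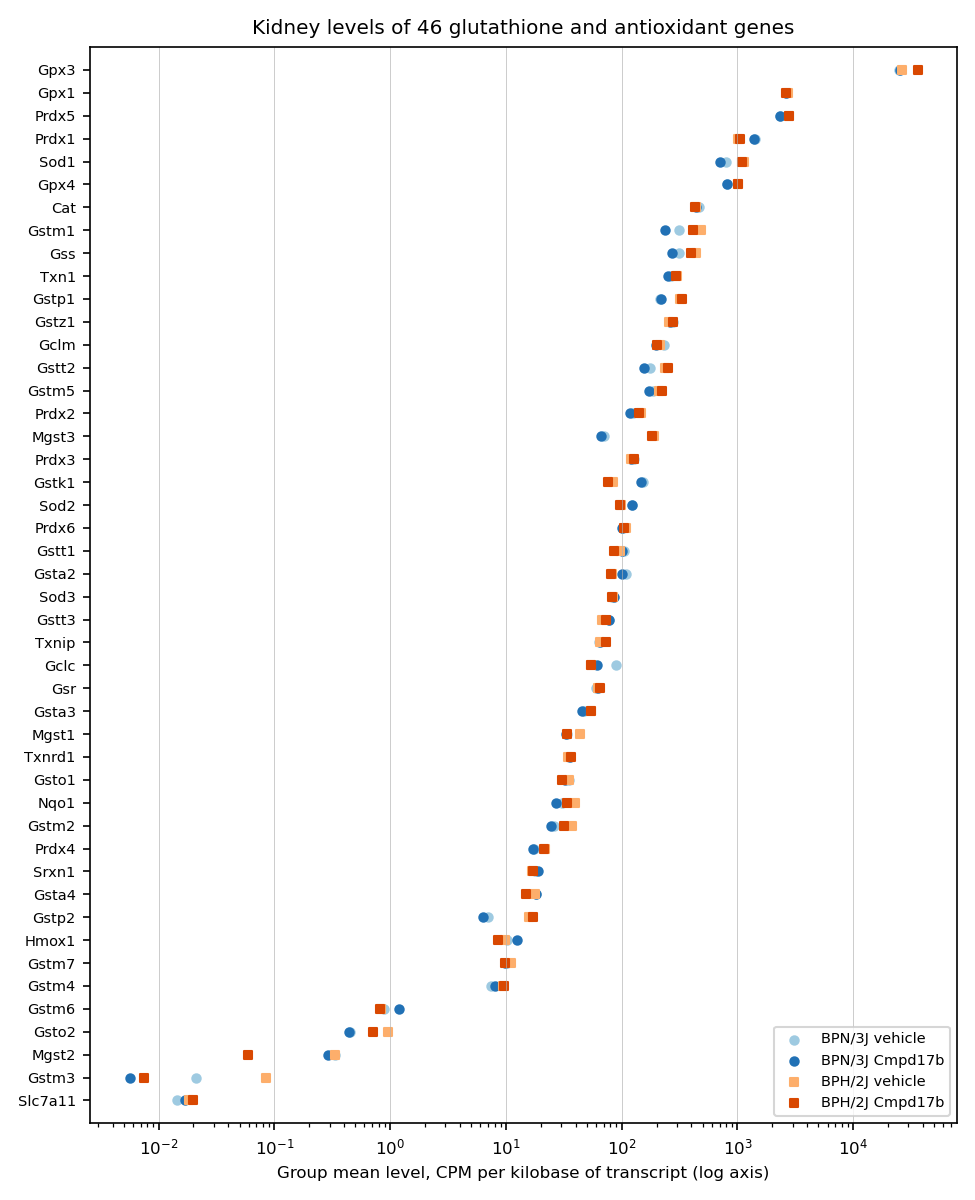
Group mean level of each of the 46 genes in CPM per kilobase of transcript (horizontal log axis), with 1 point per group and no error shown. Gpx3 lies far to the right of every other gene, and Mgst2, Gstm3 and Slc7a11 lie at the left.

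At the low end, 3 members were not tested because their counts were too low. Slc7a11, the cystine importer, did not exceed 0.303 CPM in any library, Gstm3 did not exceed 0.176 CPM and Mgst2 did not exceed 0.373 CPM. The 43 other members passed the filter. Their SD within groups on the log2 CPM scale had a median of 0.29, against 0.31 over all tested genes. It was largest for Gsto2 (0.60), Gstp2 (0.58) and Gpx3 (0.53) and smallest for the sulfiredoxin Srxn1 (0.09), Prdx3 (0.11) and Sod3 (0.12).

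The comparison of the strains under vehicle asked how the BPH/2J kidney differs without Cmpd17b. Of the 43 tested members, 3 were higher (Mgst3, Gstm1, Gstp2) and 2 lower (Gstk1, Prdx1) in BPH/2J at an adjusted p under 0.05, the threshold for a call. These 5 are 11.6% of the members, and 10.8% of all 16421 tested genes were called (5.82% higher and 4.94% lower), so the share was near the background. The median log2 fold change was 0.07 over the members and 0.04 over all tested genes. In Cmpd17b-treated mice, 4 members were higher (Mgst3, Gstm1, Gstp2, Gss) and 2 lower (Gstk1, Sod2) in BPH/2J. That is 14% of the members, against 10.4% of all tested genes (5.71% higher and 4.65% lower). Both comparisons use different mice and share 1 fit. Across them 7 members were called, 4 in both (Mgst3, Gstm1, Gstp2, Gstk1), which is 9.3% of the members against 6.75% of all tested genes, and 36 in neither. Under vehicle, 8 members were called with DESeq2 (11.5% of all genes it tested), 4 with limma-voom (11.3%) and 2 when the left-out library was kept (3.43%). Under Cmpd17b these counts were 7 (11.3%), 6 (9.58%) and 3 (8.76%). Of the 12 proximal tubule markers, 1 was lower in BPH/2J in each comparison and none higher, with median log2 fold changes of -0.42 and -0.26, and their part in the members' differences was not tested. Marker lists of other cell types also differed between the strains. Under vehicle, 4 of 7 podocyte markers (median log2 fold change 0.94), 3 of 8 fibroblast and matrix markers (1.16) and 2 of 8 liver markers (1.43) were higher in BPH/2J, 2 of 5 distal convoluted tubule markers were lower (-0.49), and 2 of 19 tested heart muscle markers were higher and 1 lower. Under Cmpd17b, 18 of 19 heart muscle markers (4.98), 1 of 7 podocyte markers (0.49) and 2 of 6 tested red blood cell markers were higher, and 2 of 5 distal convoluted tubule markers (-0.59) and 1 red blood cell marker lower. In the other lists at most 1 marker passed the test, and the part of all these lists in the members' differences was not tested.

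The largest called difference was in Mgst3, a membrane-bound microsomal glutathione transferase that also reduces lipid hydroperoxides. Its levels were 76.4, 69.3, 81.6 and 81.6 CPM in vehicle BPN/3J and 147, 166, 314, 196 and 214 CPM in vehicle BPH/2J. Every BPH/2J library lay above every BPN/3J library. The log2 fold change was 1.42 (SE 0.21, 95% interval 0.98 to 1.87, adjusted p = 0.000187), a 2.68-fold higher level. Under Cmpd17b the levels were 60.5, 65.2, 74.8, 69.4 and 95.1 CPM in BPN/3J and 143, 216, 173 and 277 CPM in BPH/2J. Here too the groups did not overlap, and the log2 fold change was 1.47 (SE 0.21, adjusted p = 7.7e-05). The other tested member of the class, Mgst1, was at 27.6 ± 3.23 CPM (SD, n = 4) and 36.3 ± 8.04 CPM (SD, n = 5) under vehicle, which did not pass the test (log2 fold change 0.39, adjusted p = 0.105).

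Gstk1, the kappa class transferase of mitochondria and peroxisomes, was lower in BPH/2J. It was at 122, 139, 125 and 185 CPM in vehicle BPN/3J and at 57.2, 57.6, 97.1, 73.3 and 104 CPM in vehicle BPH/2J. The groups did not overlap, and the log2 fold change was -0.88 (SE 0.20, adjusted p = 0.0069). Under Cmpd17b it was at 101, 134, 138, 134 and 180 CPM in BPN/3J and at 55.6, 74.2, 66.3 and 86.7 CPM in BPH/2J. Again no BPH/2J library reached the lowest BPN/3J library (log2 fold change -0.96, SE 0.20, adjusted p = 0.00403). Like Mgst3, Gstk1 was called in both strain comparisons in each of the 18 fits that left out 1 library. The vehicle call was lost when BPH/2J vehicle replicates 2 and 4 were left out (log2 fold change -0.73, adjusted p = 0.0683). Within their group these libraries stood apart in leukocyte markers or in urothelium and fat cell markers. BPN/3J Cmpd17b replicate 1, which was kept in that fit, had a fat cell sum of 269 CPM, against 254.3 CPM in BPH/2J vehicle replicate 4.

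In the mu class of cytosolic transferases, Gstm1 was higher in BPH/2J. It was at 304, 233, 331 and 235 CPM in vehicle BPN/3J and at 397, 360, 471, 566 and 324 CPM in vehicle BPH/2J. The lowest BPH/2J library lay below the highest BPN/3J library, and the log2 fold change was 0.62 (SE 0.19, adjusted p = 0.0377). Under Cmpd17b the groups did not overlap, at 223, 137, 209, 223 and 258 CPM in BPN/3J and 404, 344, 402 and 312 CPM in BPH/2J (log2 fold change 0.80, SE 0.18, adjusted p = 0.00678). The vehicle call held in 11 of 18 fits that each left out 1 library, and the Cmpd17b call in 18 of 18. The vehicle call was also lost without BPH/2J vehicle replicates 2 and 4 together (log2 fold change 0.53, adjusted p = 0.135). The 5 other tested mu genes were not called in either comparison, with log2 fold changes from -0.11 (Gstm6) to 0.52 (Gstm2) under vehicle. With Gstm1 to Gstm7 summed, the log2 fold change was 0.48 under vehicle (adjusted p = 0.0464) and 0.62 under Cmpd17b (adjusted p = 0.00952).

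Gstp2, the low copy of the pi class, was at 3.03, 2.76, 2.43 and 4.96 CPM in vehicle BPN/3J and at 5.83, 5.45, 14.8, 4.47 and 6.88 CPM in vehicle BPH/2J. The groups overlapped, and the log2 fold change was 1.18 (SE 0.37, adjusted p = 0.0473). Under Cmpd17b they did not overlap, at 1.43, 2.27, 4.08, 3.43 and 3.7 CPM in BPN/3J and 7.06, 7.08, 5.41 and 12.6 CPM in BPH/2J (log2 fold change 1.42, SE 0.36, adjusted p = 0.0147). Gstp1, the abundant copy, was at 171 ± 25.8 CPM (SD, n = 4) against 257 ± 73.1 CPM (SD, n = 5) under vehicle and was not called (log2 fold change 0.59, adjusted p = 0.109). With both copies summed neither strain comparison passed the test (adjusted p = 0.104 under vehicle and 0.0863 under Cmpd17b). The Gstp2 vehicle call held in 7 of 18 fits without 1 library, and its Cmpd17b call was lost without BPH/2J Cmpd17b replicate 5 (adjusted p = 0.068). Without the 3 BPH/2J libraries whose mitochondrial share was above 20% the log2 fold change under vehicle was 0.67 (adjusted p = 0.166).

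**Figure D2:**
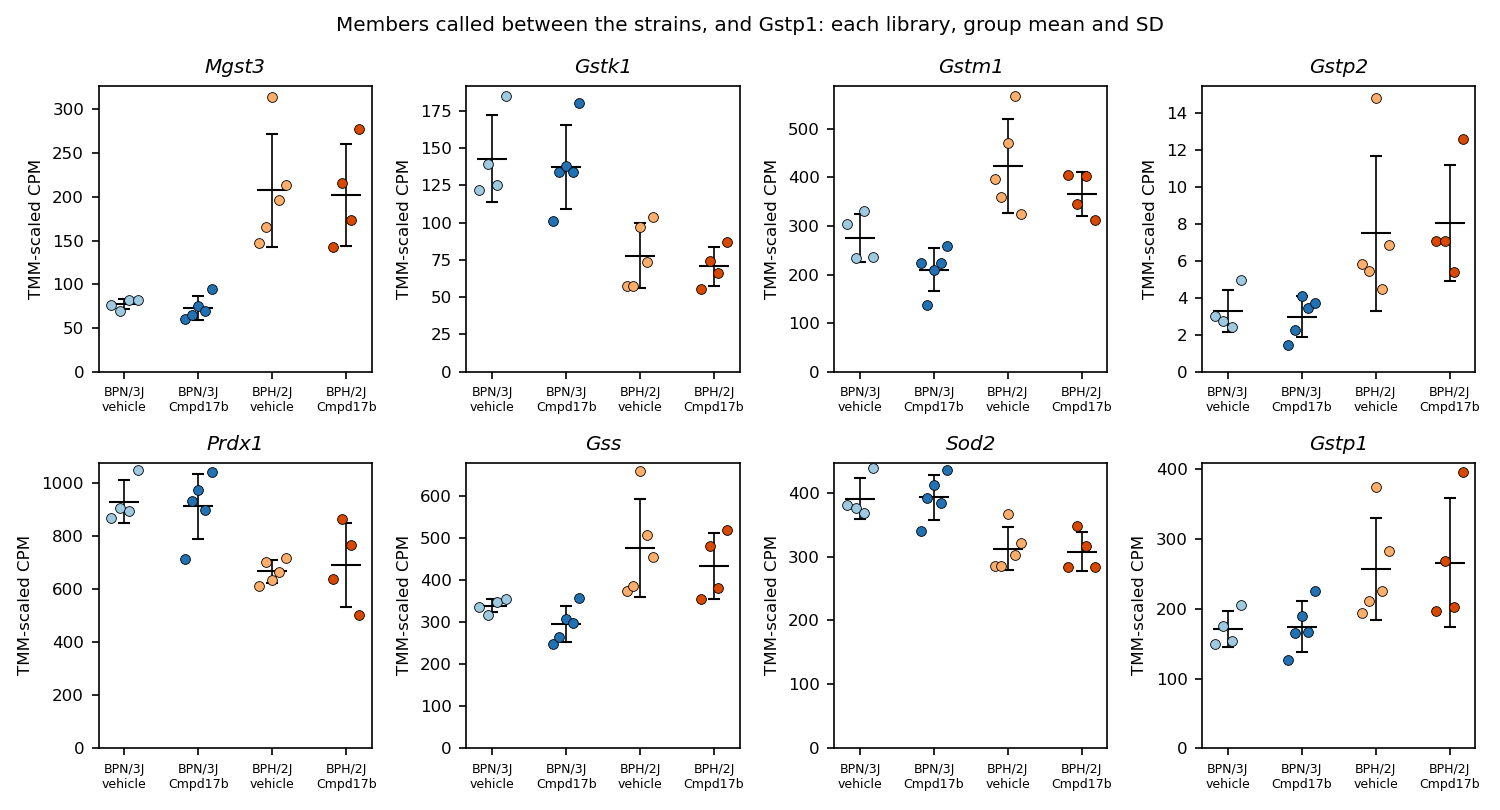
TMM-scaled CPM (vertical axis) of the 7 members called between the strains and of Gstp1, with 1 point per library and the group mean and SD as bar and whiskers. The Mgst3 points of BPH/2J all lie at 143 CPM or more and those of BPN/3J at 95.1 CPM or less, while Gstk1 shows the opposite order.

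The remaining transferases were not called. The alpha class, abundant in proximal tubules, had log2 fold changes between the strains under vehicle of -0.37 (Gsta2), 0.21 (Gsta3) and -0.03 (Gsta4). The theta class had -0.12 (Gstt1), 0.44 (Gstt2) and -0.20 (Gstt3). Gstz1, which also works in tyrosine breakdown, had -0.11 and the omega class Gsto1 had -0.01. Gsto2, under 2 CPM in each group mean, had 1.09 with an interval of 0.24 to 1.94 (adjusted p = 0.102). Part of the Gsta2 and Gstt3 transcripts (26.8% and 21.7% of stretches of 150 bases) is shared with another gene.

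In glutathione synthesis, Gss was at 337, 318, 347 and 355 CPM in vehicle BPN/3J and at 374, 385, 659, 508 and 455 CPM in vehicle BPH/2J. The groups did not overlap but the test was not passed (log2 fold change 0.49, SE 0.16, adjusted p = 0.0614). Under Cmpd17b it was called, at 249, 265, 307, 299 and 357 CPM in BPN/3J and 355, 481, 381 and 519 CPM in BPH/2J, where the groups overlapped by 1 library each (log2 fold change 0.55, SE 0.16, adjusted p = 0.0316). The call held in 12 of 18 fits without 1 library, and without BPH/2J Cmpd17b replicate 5 the adjusted p was 0.105. The antisense gene Gssos2 lies beside Gss and was itself called under vehicle but not under Cmpd17b. Whether the counting used strand is not given in the sources used here, so it is not known whether reads of the pair were told apart. Gclc, the rate-limiting subunit, was at 379, 233, 371 and 240 CPM against 273, 181, 165, 163 and 138 CPM under vehicle (log2 fold change -0.73, adjusted p = 0.0901), and Gclm had a log2 fold change of -0.11.

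Among the peroxide and superoxide enzymes, the cytosolic peroxiredoxin Prdx1 was lower in BPH/2J under vehicle, at 869, 907, 893 and 1050 CPM in BPN/3J against 612, 701, 635, 666 and 719 CPM in BPH/2J. The groups did not overlap, and the log2 fold change was -0.48 (SE 0.14, adjusted p = 0.0344), a call that held in 11 of 18 fits without 1 library and was lost without BPH/2J vehicle replicates 2 and 4 together (-0.51, adjusted p = 0.0981). Under Cmpd17b it was -0.40 and not called (adjusted p = 0.0886). The mitochondrial dismutase Sod2 was at 380, 376, 368 and 439 CPM against 285, 285, 366, 303 and 321 CPM under vehicle, groups that did not overlap though the test was not passed (log2 fold change -0.32, adjusted p = 0.0591). Under Cmpd17b Sod2 was called, at 340, 391, 412, 383 and 436 CPM in BPN/3J and 284, 347, 316 and 284 CPM in BPH/2J (log2 fold change -0.35, SE 0.11, adjusted p = 0.0442). These groups overlapped, and the call held in 6 of 18 fits without 1 library. A difference in whether the call passed between arms is not a difference between the arms, and the interaction below did not pass for either gene.

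No glutathione peroxidase was called between the strains, with log2 fold changes under vehicle of 0.05 (Gpx1), 0.07 (Gpx3) and 0.32 (Gpx4). The 5 other peroxiredoxins ran from -0.07 (Prdx3) to 0.29 (Prdx4). Sod1 had 0.51, the extracellular Sod3 0.01 and Cat -0.10. The recycling enzymes lay close to 0, with Gsr at 0.04, Txnrd1 at -0.02, Txn1 at 0.17, its inhibitor Txnip at 0.01 and Srxn1 at -0.07. Of the 5 recycling genes, all had a 95% interval within 1.5-fold under vehicle. Nqo1 had 0.37 (adjusted p = 0.122) and Hmox1 -0.04.

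**Figure D3:**
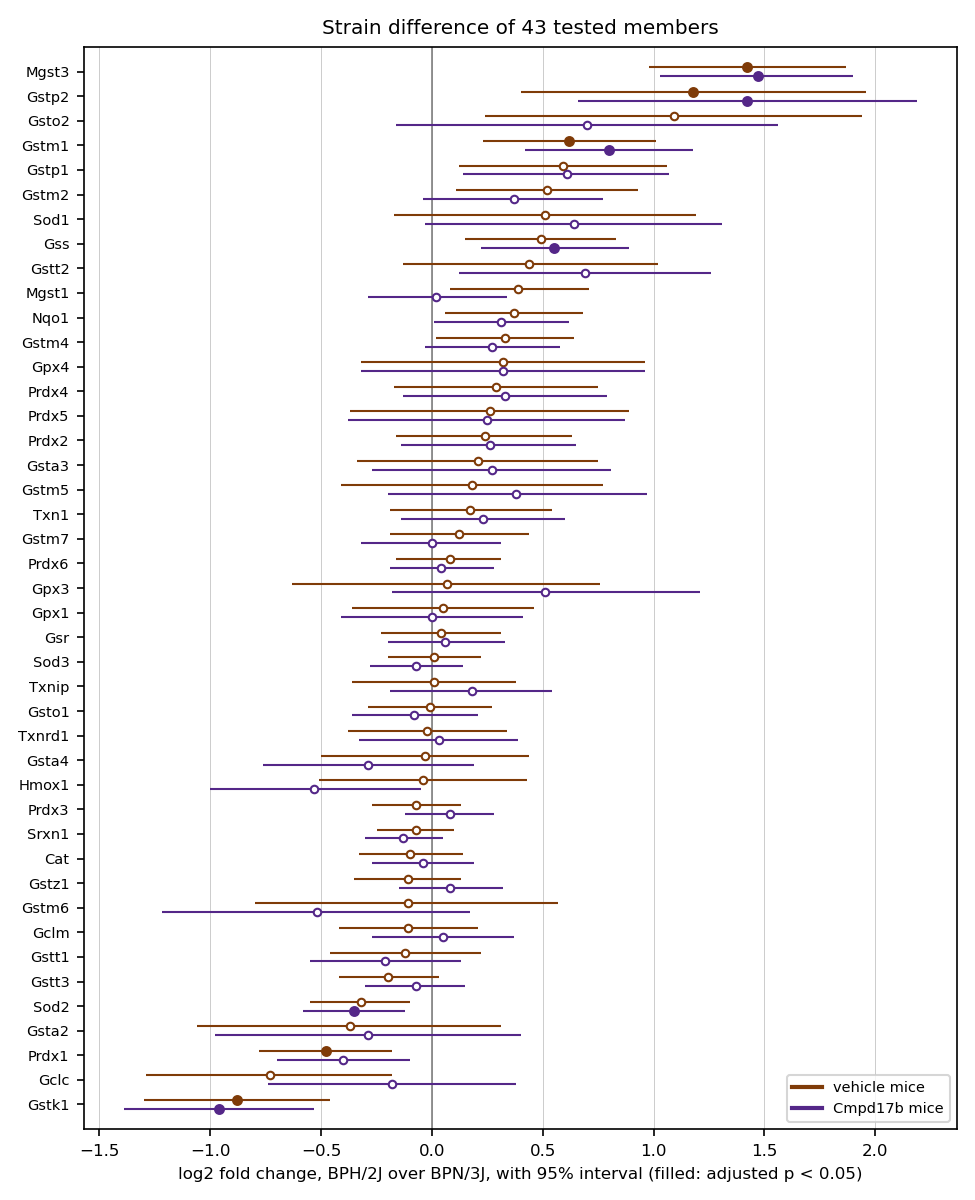
log2 fold change of BPH/2J over BPN/3J (horizontal axis) with its 95% interval for the 43 tested members, under vehicle (brown) and Cmpd17b (purple), where filled points passed an adjusted p of 0.05. Mgst3 and Gstp2 lie at the top and Gstk1 at the bottom in both arms.

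Groups that did not overlap under vehicle were found for 5 members (Mgst3, Gss, Gstk1, Prdx1 and Sod2), 11.6% against 13.6% of all tested genes. Under Cmpd17b there were 4 such members, 9.3% against 12.8%. Of the 10 tested genes nearest to Gstk1 along the chromosome (gene order of GRCm38.p6), 4 were called between the strains under vehicle and 4 under Cmpd17b. The counts under vehicle and Cmpd17b were 1 and 2 of 10 for Prdx1, 2 and 2 for Gss, 2 and 3 for Sod2, and 0 and 0 for Gstm1 and for Gstp2, against the 10.8% and 10.4% of all tested genes.

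Some members varied with the mitochondrial share of a library within BPH/2J. The 3 libraries above 20% (vehicle replicates 3 and 5, Cmpd17b replicate 5) were all above the 6 other BPH/2J libraries in 10 of the 43 members (23.3%, against 14.7% of all tested genes): Gstm5, Gstp1, Gstt2, Gstk1, Gpx3, Gpx4, Prdx2, Prdx5, Prdx6 and Sod1. They were all below the others in 5 members (11.6%, against 14.3%): Gsr, Txnrd1, Gsta3, Gstm4 and Gstt3. The median transcript length was 879 bases for the 10 members above and 1462 bases for the 5 below, and the part of length was not tested. Gpx3 was at 26800, 36500 and 58700 CPM in these 3 libraries and between 12400 and 23400 CPM in the 6 others. Sod1 was at 1180, 923 and 1160 CPM, against 414 to 716 CPM in the others. Without the 3 libraries, 7 members were called in each strain comparison, while the share of all tested genes called was 13.6% under vehicle and 10.7% under Cmpd17b. Mgst3 then had log2 fold changes of 1.13 and 1.27 (adjusted p = 9.73e-05 and 1.42e-05), so its call did not rest on them. The part of the mitochondrial share in the other results was not tested.

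**Figure D4:**
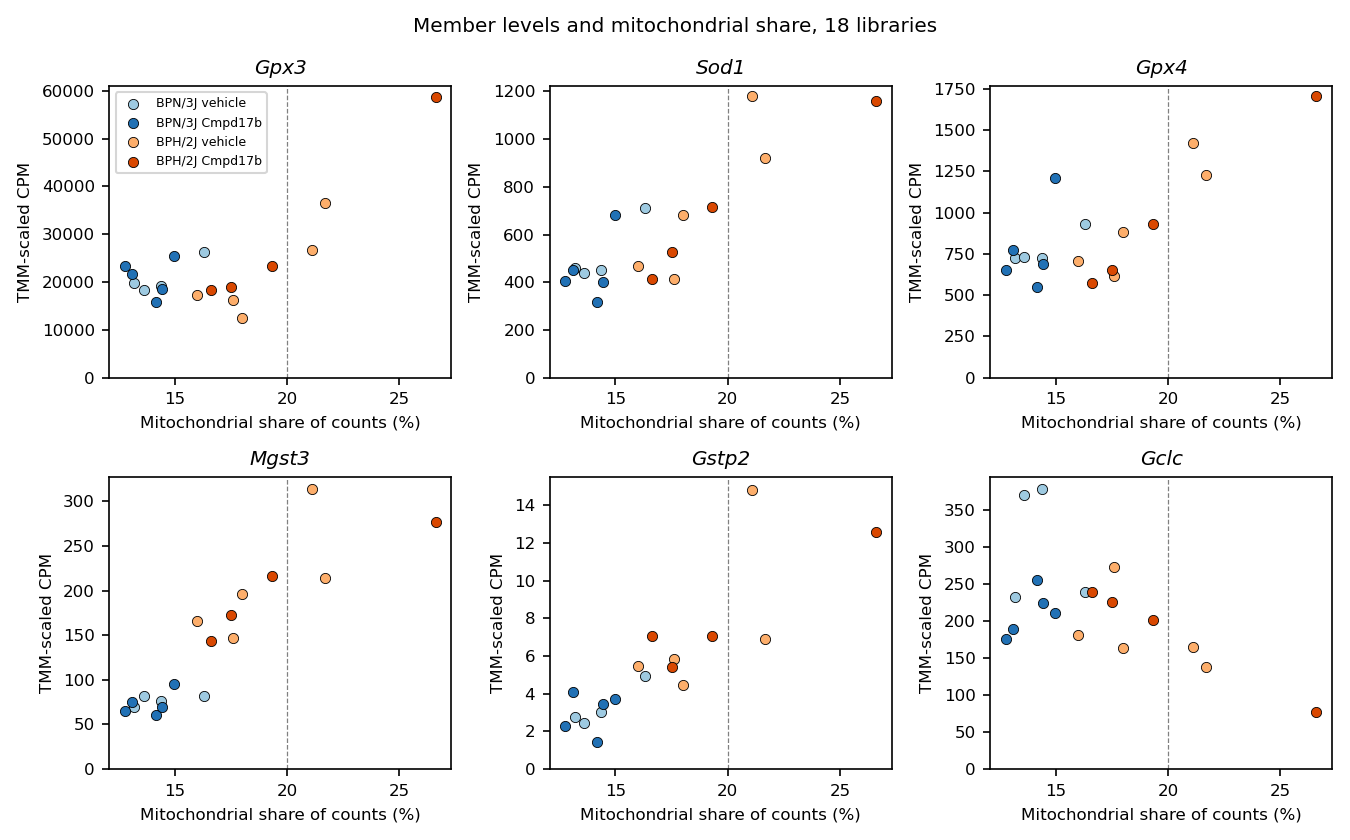
TMM-scaled CPM of 6 members (vertical axes) against the mitochondrial share of counts in percent (horizontal axes), with 1 point per library, coloured by group, and a dashed line at 20%. The 3 BPH/2J libraries right of the line are the highest BPH/2J libraries for Gpx3, Sod1 and Gpx4, and 1 of them is the lowest of all 18 for Gclc.

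The comparison of Cmpd17b with vehicle asked whether the treatment changed these genes in each strain. In BPH/2J no member was called, and 0.164% of all tested genes were. The log2 fold changes ran from -0.44 to 0.45, with a median of -0.02 against -0.01 over all tested genes. The 95% interval lay within 2-fold for 41 of the 43 members and within 1.5-fold for 28. Vehicle and treated libraries overlapped for each of the 43 members, whereas they did not for 0.932% of all tested genes. At an unadjusted p under 0.05 there was 1 member, against 3.7% of all tested genes. DESeq2 and limma-voom called no member (0.173% and 0.207% of all genes). Of the 27 genes called in the main fit, 16 were among the 19 tested heart muscle markers. The heart muscle sum was higher in the treated BPH/2J libraries, as given above, and its part in these values was not tested.

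The smallest p in BPH/2J was that of Mgst1, at 30.3, 34.3, 42.3, 46.7 and 27.7 CPM under vehicle and 27.2, 30.5, 28.6 and 25.8 CPM under Cmpd17b. The groups overlapped (log2 fold change -0.37, 95% interval -0.69 to -0.06, adjusted p = 1). Nqo1 was at 73.7, 53.1, 59.5, 72.6 and 50.6 CPM against 59.9, 51.4, 57.4 and 38.9 CPM (log2 fold change -0.25). Gsto1 was at 21.9, 27.3, 28.2, 36 and 23.4 CPM against 23.2, 27.4, 22.8 and 22.9 CPM (log2 fold change -0.19). Neither separated the groups. For the 7 members that differed between the strains, the treatment values in BPH/2J lay between -0.21 (Gstm1) and 0.10 (Gstp2).

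In BPN/3J no member was called either, and 0% of all tested genes were called. The log2 fold changes ran from -0.53 to 0.42, and the 95% interval lay within 2-fold for 41 members and within 1.5-fold for 29. The groups overlapped for each member, and did not for 1.78% of all tested genes. Gstm1, with the smallest p and the only unadjusted p under 0.05 among the members, was at 304, 233, 331 and 235 CPM under vehicle and at 223, 137, 209, 223 and 258 CPM under Cmpd17b (log2 fold change -0.39, adjusted p = 1). Gclc was at 379, 233, 371 and 240 CPM against 255, 176, 190, 224 and 211 CPM (log2 fold change -0.53, 95% interval -1.09 to 0.02). Gclm was at 257, 195, 267 and 203 CPM against 214, 186, 196, 201 and 187 CPM (log2 fold change -0.23). In all 3 genes vehicle replicates 1 and 3 were the highest libraries, and the groups overlapped. An unadjusted p under 0.05 was found for 2.53% of all tested genes. DESeq2 called no member and 0.0204% of all genes, and limma-voom called none of either.

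**Figure D5:**
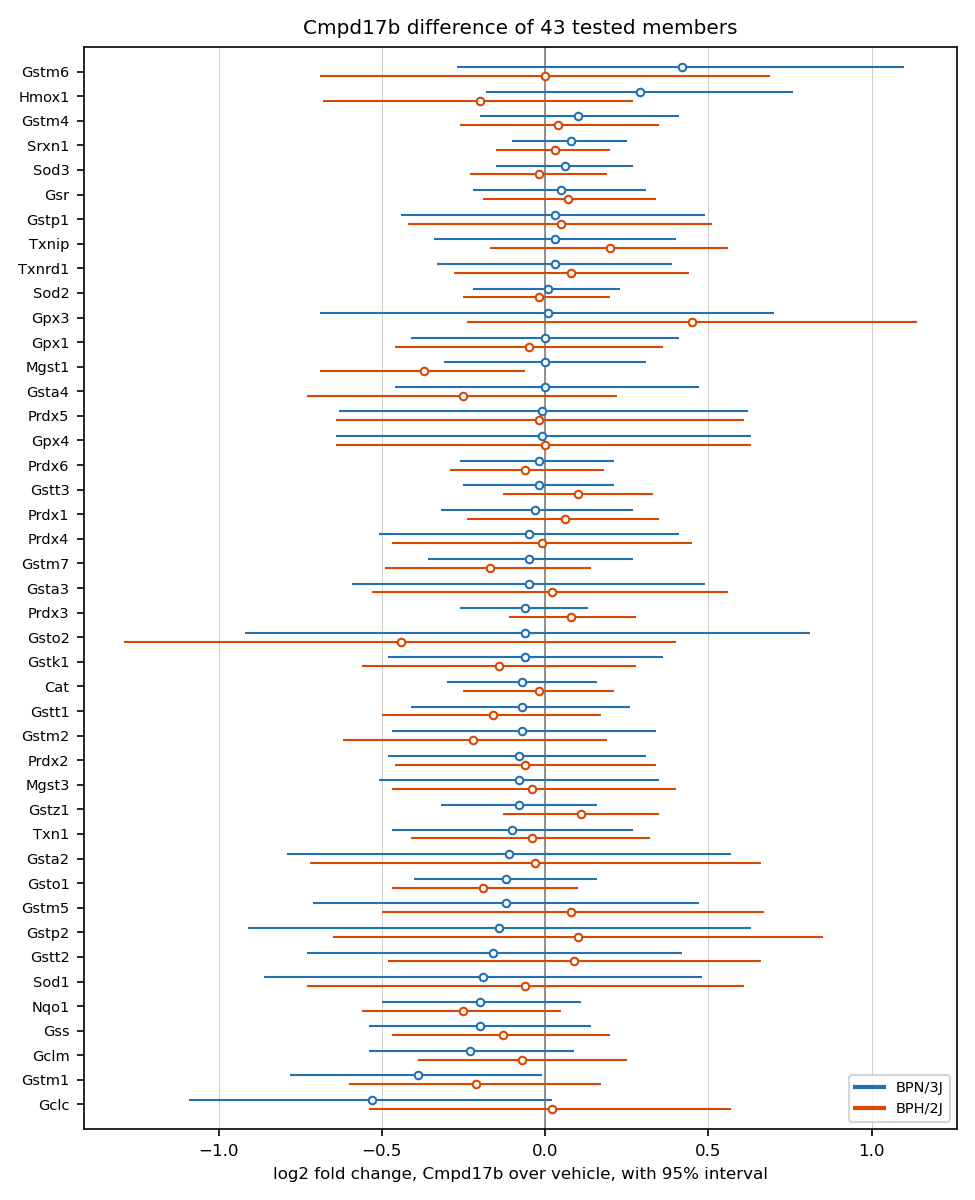
log2 fold change of Cmpd17b over vehicle (horizontal axis) with its 95% interval for the 43 tested members, in BPN/3J (blue) and BPH/2J (orange), where open points did not pass an adjusted p of 0.05. Every point is open, and the values lie between -0.53 and 0.45.

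The interaction tested whether the Cmpd17b effect differed between the strains. No member was called, and 0.0304% of all tested genes were. These were 5 genes, all of them among the 19 tested heart muscle markers. No member had an unadjusted p under 0.05, against 3.22% of all tested genes, and DESeq2 and limma-voom called no member (0.0477% and 0.0426% of all genes). The 3 members with the smallest p were Mgst1 (-0.37, 95% interval -0.81 to 0.07), Hmox1 (-0.49, -1.16 to 0.17) and Gclc (0.55, -0.24 to 1.34), each with an adjusted p of 1. Hmox1 was at 14, 20, 16.2 and 13.7 CPM in vehicle BPN/3J, 19.1, 20.7, 22.6, 17.9 and 17.1 CPM in treated BPN/3J, 17, 21.2, 12.4, 14 and 13 CPM in vehicle BPH/2J and 14.5, 12.6, 19.9 and 6.8 CPM in treated BPH/2J.

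Of 86 other genes of the pathway, 84 were tested. Under vehicle 7 were higher and 8 lower in BPH/2J (17.9%, against 10.8% of all tested genes), and under Cmpd17b 3 were higher and 3 lower (7.14%, against 10.4%). No such gene was called for Cmpd17b in either strain or for the interaction. Of the 9 tested genes listed as NRF2 regulators, 1 was higher and 1 lower under vehicle (22.2%, against 10.8% of all tested genes). The higher was Sqstm1 (log2 fold change 0.33, adjusted p = 0.0292) and the lower Cul3 (-0.38, adjusted p = 0.0268). Under Cmpd17b none of the 9 was called. Nfe2l2 and Keap1 were not called (log2 fold changes of -0.10 and 0.14 under vehicle). The higher genes included Ftl1, the ferritin light chain, with 1.49 under vehicle and 1.59 under Cmpd17b, although 46% of its transcript stretches are shared with other loci. Ggct, which breaks down gamma-glutamyl peptides, had 1.17 and 1.06, called in 15 and 13 of the 18 fits without 1 library. Under vehicle the aldo-keto reductase Akr1b8 (1.23) and the peroxidase Gpx8 (0.78) were also higher, each called in 14 of those 18 fits, and under Cmpd17b Htatip2 (0.64), an oxidoreductase that was called under vehicle as well. Without BPH/2J vehicle replicates 2 and 4, Akr1b8 had 0.68 (adjusted p = 0.243) and Gpx8 0.73 (adjusted p = 0.0951). Without the 3 BPH/2J libraries high in mitochondrial share, Gpx8 had 0.66 (adjusted p = 0.0528) and Ggct 0.82 under vehicle (adjusted p = 0.0723).

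The lower genes were led by Ltc4s, the leukotriene C4 synthase that is related to the microsomal transferases, with log2 fold changes of -1.70 under vehicle and -2.01 under Cmpd17b at levels of 6.5 CPM or less. Its vehicle call was lost without BPH/2J vehicle replicates 2 and 4 (-1.39, adjusted p = 0.108) and with all 19 libraries. Nnt, the mitochondrial transhydrogenase that supplies NADPH for glutathione and thioredoxin recycling, was at 256, 246, 251 and 260 CPM in vehicle BPN/3J and at 149, 128, 108, 136 and 132 CPM in vehicle BPH/2J. The groups did not overlap, and the log2 fold change was -0.95 (SE 0.15, adjusted p = 0.000245). Under Cmpd17b it was -0.83 (adjusted p = 0.00097). Selenop, the selenium carrier, had -0.68 and -0.57 (called in 18 and 12 of those fits), and without the 3 libraries high in mitochondrial share -0.44 under Cmpd17b (adjusted p = 0.0844). The mitochondrial folate enzyme Mthfd1l had -1.20 under vehicle. With all 19 libraries its vehicle call held, while those of Nnt, Selenop, Ftl1, Akr1b8, Ggct and Gpx8 were lost, like that of Ltc4s. In that fit the Cmpd17b calls of Nnt, Selenop and Ggct were lost too, and those of Ltc4s, Ftl1 and Htatip2 held.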

How the data were processed

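Per the labels, kidney polyadenylated RNA of separate mice was made into paired-end libraries, all of batch 2. Trim Galore 0.6.7, STAR 2.7.9a and the build mm39 are named by the submitters' processing notes. The deposited values are expected counts per gene, since 4.63% to 10.06% of them per library are not whole. Which counter, annotation and strand setting made them is not given in the sources used here. Rounded counts entered edgeR 4.0.16 under R 4.3.3 (robust quasi-likelihood fit, TMM, filterByExpr with minimum count 10 and total 15), with 4 groups in 1 model and Benjamini-Hochberg adjustment over 16421 genes. CPM are TMM-scaled. The SE is the log2 fold change divided by the root of F.

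The members and lists were chosen with earlier results of these data known. Named were all called members, the 3 of smallest p where none was called, and up to 4 other pathway genes per direction (mean log2 CPM 1 or more). Gstp1, Nfe2l2, Keap1, Cul3, Sqstm1, chromosomal neighbours and members named only by level, spread or mitochondrial share were added after their values were seen. The chromosomal neighbours of 1 called member are not reported here. Lengths are medians of protein-coding transcripts in GENCODE M21. Promoters are from RefSeq (GRCm38.p6). Alternatives included DESeq2 1.42.0 and limma-voom (limma 3.58.1). The test was checked on simulated counts with 200 changed genes, none of them low in counts, in each comparison but the interaction. It called 73% to 79% of the 2-fold changes and 23% to 35% of the 1.5-fold changes. Of its calls, 3.77% to 8.93% were false. Genes were drawn independently of each other in the simulation, so variation that many genes of a library share was not part of it. Figures used matplotlib 3.10.9 under Python 3.11.15.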

Additional observations from a re-analysis of the deposited data

Results flagged for a closer look

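In 52 groups of 4 or 5 libraries of the named members, 4 had 1 library far from the others by Dixon's criterion, and chance flags about 1 in 20. Gclc was at 76.7 CPM in BPH/2J Cmpd17b replicate 5, against 201 to 240 CPM in the others of its group. Gclm was at 131 CPM in the same library, against 218 to 233 CPM, and at 171 CPM in BPH/2J vehicle replicate 5, against 214 to 231 CPM. Both libraries have a mitochondrial share above 20%. Gsto1 was at 27.4 CPM in BPH/2J Cmpd17b replicate 3, against 22.8 to 23.2 CPM.

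Replicate 1 of the treated BPH/2J group, left out above, held 2 members at 2 times or more the highest vehicle library, on unscaled CPM. Gsto1 was at 117 CPM in it, against 21 to 38.1 CPM under vehicle, and Gstm7 at 30.6 CPM, against 5.8 to 10.9 CPM. Another 26 members were below the lowest vehicle library, and 12 were under 10% of their median over the 18 libraries, among them Gpx3 at 202 CPM.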

How the results depend on the processing

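No member was called for Cmpd17b in either strain or for the interaction under any alternative run. The count of members called between the strains under vehicle was 5 in the main fit, where 10.8% of all tested genes were called. It was 2 with all 19 libraries (3.43%), 8 with DESeq2 (11.5%), 3 with no filter (4.82%) and 3 with only the compared groups (9.39%). Without BPH/2J vehicle replicates 2 and 4, an alternative chosen after the data were seen, it was 2 (6.14%). Leaving out each of the 18 libraries gave 2 to 9, as the share of all tested genes called ran from 7.31% to 14.9%. It was 9 without BPH/2J Cmpd17b replicate 5 (14.9%), 2 without BPN/3J vehicle replicate 1 or 2 (7.31% and 7.66%), and 3 without BPN/3J vehicle replicate 3 or 4 (7.45% and 8.78%), BPN/3J Cmpd17b replicate 3 (9.63%) or BPH/2J vehicle replicate 4 (8.53%). The count under Cmpd17b was 6 in the main fit (10.4% of all tested genes) and 3 with all 19 libraries (8.76%). Without 1 library it was 3 to 6, as the share of all tested genes called ran from 7.89% to 10.7%. The count was 3 without BPH/2J Cmpd17b replicate 5 (9.02%). Leaving out the 3 BPH/2J libraries with a mitochondrial share above 20%, also chosen after the data were seen, gave 7 and 7 (13.6% and 10.7%). Mgst3 was called in both strain comparisons under every alternative. With all 19 libraries, the strain difference of Nnt under Cmpd17b turned to 0.12 and the Cmpd17b difference of Gsto1 in BPH/2J to 0.86. The cause was not tested. No paired analysis was possible because the labels give no replicate number shared between groups. Depth limits the members under 1 CPM.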
